A study of Sus scrofa with 70 samples.

Results

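Aquaporins are membrane channels of epithelia, blood vessels and germ cells, and they were followed here through 5 male reproductive glands of the pig. Members were all genes whose symbol in the deposited annotation begins with AQP, which gave 10 genes (AQP1, AQP2, AQP3, AQP4, AQP5, AQP6, AQP8, AQP9, AQP10 and AQP11). The gene ENSSSCG00000010992 carries no symbol in that annotation but lies at the RefSeq locus of AQP7 on chromosome 10, and it was added as AQP7. This made 11 members of the 35552 genes that had a value above 0 in at least 1 short-read library, with 53 of 133722 transcripts. The value of a gene was the sum of its transcripts in TPM, a unit that scales reads to the length of the transcript and to the total of the library, so that levels of different genes can be set side by side.

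Boars aged 12 months gave bulbourethral gland (BG), prostate gland (PG), testis (Tes), vesicular gland (VG) and epididymis (Epi). They came from the Banna mini-pig inbred line (BMI), a single inbred line derived from the Diannan small-ear pig, and from the Diannan small-ear pig (DSE) itself, with no treatment. Each breed and gland had 3 short-read RNA-seq libraries (30 in all) and 1 Iso-seq library (10 in all), which counts full-length cDNA reads. Tissue pieces hold many cell types, so a lower TPM from fewer cells of a type and from less RNA per cell cannot be told apart. The labels name the 3 libraries as separate samples without giving their animals, and p-values measure the spread between these samples.

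Water crosses these channels in single file, driven by the osmotic gradient that ion transport sets up. AQP1, AQP2, AQP4, AQP5 and AQP8 conduct mainly water, the aquaglyceroporins AQP3, AQP7, AQP9 and AQP10 also pass glycerol, and AQP11 is a distant member that sits largely in intracellular membranes. In male ducts and glands they are known for the removal of testicular fluid, the concentration of sperm and the secretion of seminal plasma. Vasopressin acting through cAMP moves AQP2 to the apical membrane in the kidney.

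Each channel folds around a pair of short loops whose tips carry the asparagine-proline-alanine (NPA) motif, and these boxes are printed because they show how the leading members of testis, AQP7 and AQP11, differ from AQP2 and AQP5. The coding DNA was read from RefSeq on Sscrofa11.1, 5′ to 3′ in the direction of the gene, with the 3 codons of the box in capitals and codons counted from the start codon. The first 4 lines are the boxes of AQP2 (codon 68 at chr5:15863680-15863706, codon 184 at chr5:15867628-15867654) and of AQP5 (codon 69 at chr5:15876723-15876749, codon 185 at chr5:15878490-15878516), of which AQP2 led in VG and AQP5 in PG and BG. The next 4 are those of AQP7 (codon 97 at chr10:33112571-33112597, codon 229 at chr10:33113379-33113405) and of AQP11 (codon 99 at chr9:12065835-12065861, codon 216 at chr9:12071044-12071070), the leading members of testis. 
AQP2 first box: gcccacatcAACCCTGCCgtgactgta
AQP2 second box: tgctccatgAATCCTGCCcgctcgctg
AQP5 first box: ggccacatcAACCCTGCCatcacgctg
AQP5 second box: tgctccatgAACCCAGCCcgctctttc
AQP7 first box: gcccacatgAATGCAGCTgttaccttt
AQP7 second box: tatgccatcAACCCATCCcgggacctg
AQP11 first box: acctccagcAATCCGTGCggagtgatg
AQP11 second box: gcggtatttAATCCAGCTttggcactt
Both boxes of AQP2 and AQP5 read asparagine-proline-alanine. The boxes of AQP7 read asparagine-alanine-alanine and asparagine-proline-serine, and the first box of AQP11 reads asparagine-proline-cysteine while its second is the usual motif. A search of all coding frames found the motif at both expected places in AQP1, AQP3, AQP4, AQP6, AQP8, AQP9 and AQP10 as well.

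AQP2, AQP5 and AQP6 lie in this order on the plus strand of chromosome 5, at chr5:15863486-15868565, chr5:15876407-15880067 and chr5:15887966-15890805 in the Ensembl models on Sscrofa11.1. The gap between AQP2 and AQP5 was 7842 bases in these models. AQP3 (chr10:33045245-33051082) and AQP7 (chr10:33099169-33116154) are neighbours on the plus strand of chromosome 10, 48087 bases apart. The remaining members stand alone, with AQP1 at chr18:42063485-42076746, AQP8 at chr3:21491719-21503863, AQP9 at chr1:113794040-113848683 and AQP11 at chr9:12065546-12078401. Neighbours differed in level. AQP5 was above 100 TPM in every VG, PG and BG library, AQP2 reached that level in VG and in 1 PG library, and AQP6 stayed below 1 TPM in every library, as AQP10 did.

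Before the results, 2 of the 30 short-read libraries need mention, because values below depend on them. The second BMI prostate library (BMI PG 2) correlated more closely with VG libraries (median r = 0.958) than with the other PG libraries (0.934). The 50 genes with the largest VG over PG difference in the DSE libraries summed to 421175 TPM in BMI PG 2, to between 506045 and 679238 in VG and to between 44.9 and 97.0 in the other PG libraries. The second DSE testis library (DSE Tes 2) correlated with the other testes at 0.907, against 0.965 to 0.975 among these. Its 7 spermatid markers summed to 25452 TPM against 75969 to 116330 in the other testes, and its Leydig cell markers to 63338 against 18526 to 32256. Testis markers and epithelial markers were otherwise present in the glands they name, except that LCN5 and SPAG11B of the epididymal list and HSD3B1 of the Leydig list had no gene of that symbol in the table. Iso-seq depth was 231413 to 458697 full-length reads a library, while the TPM table keeps no depth.

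**Figure D1:**
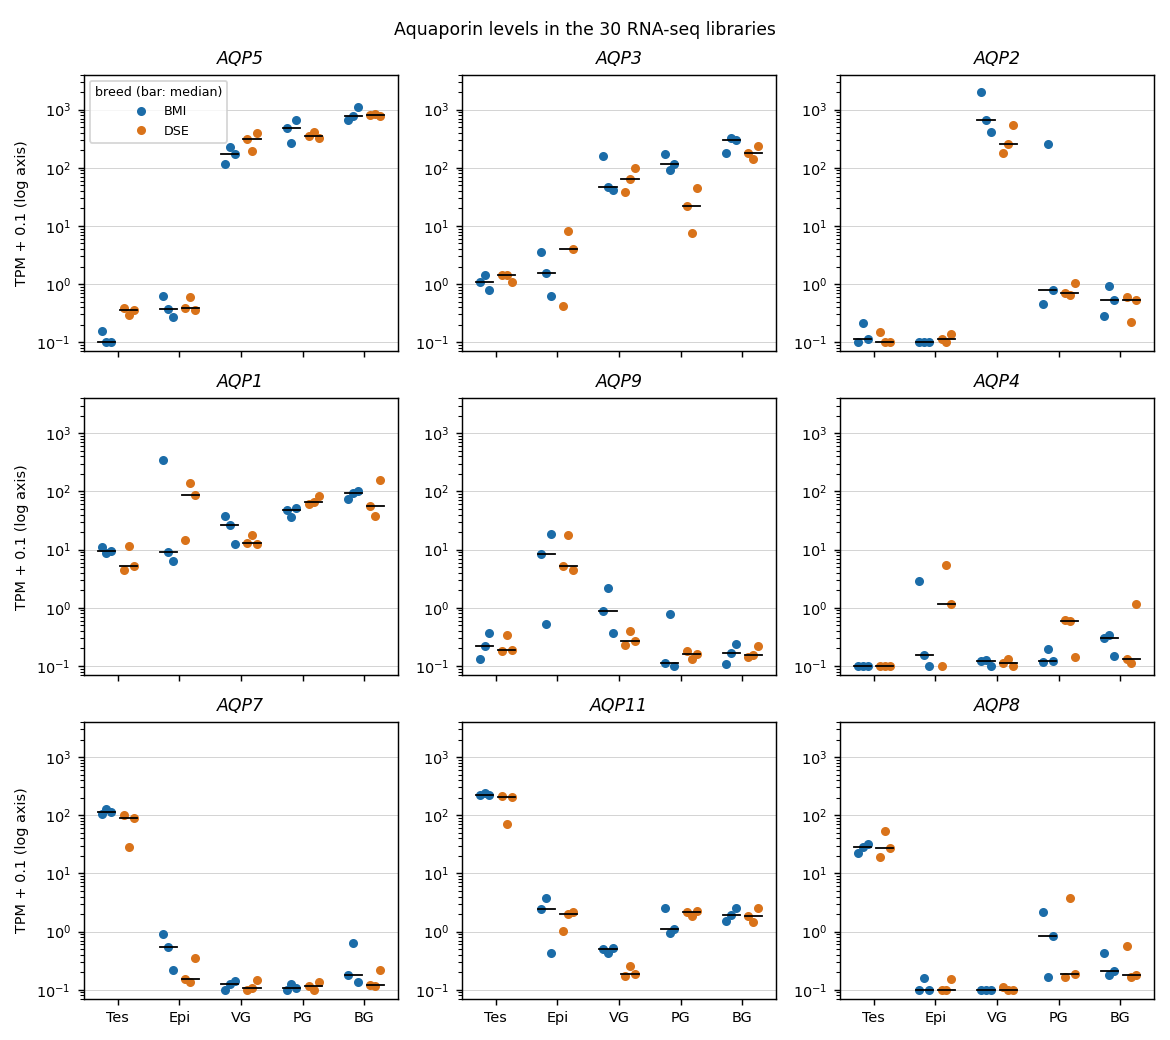
TPM + 0.1 on a log axis of the 9 aquaporins that passed the filter, by gland, with 1 point for each library (blue BMI, orange DSE) and a bar at the median of each breed. AQP5 is above 100 TPM in all VG, PG and BG libraries, AQP3 reaches down to 7.58 TPM in PG, and AQP2 is high in VG and in the library BMI PG 2 at 252 TPM, AQP7, AQP11 and AQP8 are high in testis and AQP9 in epididymis.

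The glands differed in which aquaporins they held and in how much. AQP5 led in PG and, followed by AQP3, in BG, AQP2 and AQP5 led in VG, AQP11, AQP7 and AQP8 in Tes, and AQP1 and AQP9 in Epi. The summed TPM of all members was 929 to 1520 in BG, 534 to 2303 in VG, 439 to 832 in PG, 166 to 408 in Tes and 15.5 to 371 in Epi. AQP5 had a median share of 73.1% of this sum in BG and 75.3% in PG (41.0 to 83.7%), with AQP3 at 19.3% and 12.0%. In the DSE PG libraries AQP1, at 59.8, 65.3 and 82.9 TPM, was above AQP3, at 22.0, 7.58 and 45.3 TPM. AQP2 held 57.7% in VG (33.6 to 86.5%), AQP11 60.4% and AQP7 29.0% in Tes, and AQP1 72.1% in Epi (24.4 to 95.1%).

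**Figure D2:**
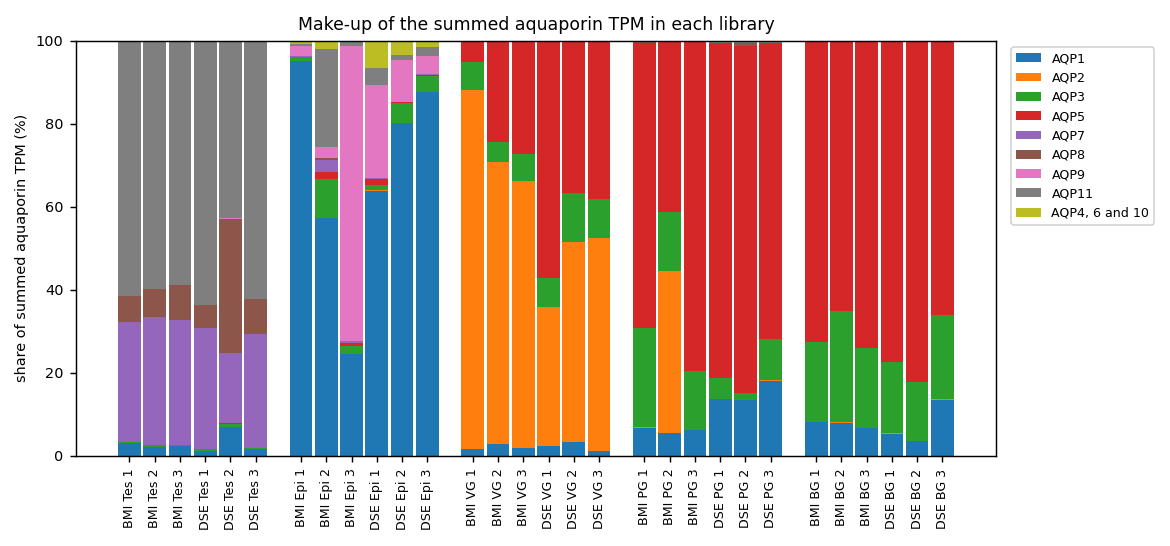
Share (%) of each aquaporin in the summed aquaporin TPM of each library, with libraries ordered by gland and breed. AQP5 (red) fills most of BG and of PG except BMI PG 2, where it holds 41.0%, AQP2 (orange) 33.6 to 86.5% of VG, AQP11 and AQP7 most of Tes, and Epi libraries vary from 24.4 to 95.1% AQP1 (blue).

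Of the 11 members, 9 had at least 1 TPM in at least 3 libraries and were tested, each gland against the mean of the other 4, with limma on log2(TPM + 1) over 19796 genes. A gene was called where its p, adjusted by Benjamini-Hochberg, was below 0.05 and its log2 difference was at least 1 in size. A single gland with a very high level lowers the difference of every other gland, so the order of the levels was read from the 10 pairs of glands in the same fit. AQP6 and AQP10, whose highest values were 0.66 and 0.92 TPM, were not tested. AQP2 passed this filter through VG alone, AQP7 and AQP8 through Tes alone and AQP4 and AQP9 through Epi alone, so a difference of other glands from that gland was set by the filter, and the counts of members called are given as descriptions. Members called in a pair, in either direction, numbered 5 of 9 between Tes and Epi (51% of all genes tested), 6 between Tes and VG (52.9%), 7 between Tes and PG (48.9%) and 6 between Tes and BG (49.1%). They numbered 5 between Epi and VG (36.5%), 4 between Epi and PG (21.3%) and 3 between Epi and BG (21.4%). Among the accessory glands they numbered 2 between VG and PG (14.8%), 5 between VG and BG (27.7%) and 2 between PG and BG (7.65%). Without BMI PG 2 and DSE Tes 2, the counts that differed were 6 between Tes and PG (50.6%), 3 between Epi and PG (22.4%), 4 between VG and PG (17.4%, with AQP5 and AQP8 newly called lower in VG) and 1 between PG and BG (7.66%). AQP3 and AQP5 were called in 8 of the 10 pairs each, AQP11 in 7, AQP2 in 6, AQP1, AQP7, AQP8 and AQP9 in 4 each and AQP4 in 0, although 4 of its pairs had an unadjusted limma p below 0.05 and 2 an adjusted p below 0.05, with differences under the minimum.

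AQP5, the water channel of the apical membrane of secretory glands, separated the accessory glands from testis and epididymis without overlap. In BG it was at 673, 771 and 1122 TPM in BMI and at 812, 835 and 766 in DSE. In PG the values were 482, 265 and 661 in BMI and 354, 409 and 325 in DSE. In VG they were 115, 229 and 175 in BMI and 311, 195 and 397 in DSE. The BG libraries all lay above the VG libraries, and those of PG overlapped VG, while BG and PG did not overlap. In Tes it was at most 0.295 TPM and in Epi 0.171 to 0.521. The means were 829.65 ± 153 in BG, 416 ± 141 in PG and 237 ± 101 in VG (SD, n = 6). BG exceeded PG by 1.04 on the log2 scale (limma adjusted p = 0.000493) and VG by 1.90 (adjusted p = 3.38e-08). PG exceeded VG by 0.86 (adjusted p = 0.00174), which is under the minimum difference. Without BMI PG 2, the lowest PG library, and DSE Tes 2, PG exceeded VG by 1.04 (adjusted p = 0.000112), past the minimum, and BG exceeded PG by 0.86 (adjusted p = 0.00178), under it. Which of these neighbours was called thus depended on leaving these libraries out.

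Markers of epithelium also differed between these glands. The 5 gland epithelium markers (KRT8, KRT18, EPCAM, ELF3 and CDH1) summed to 1532 to 2113 TPM in BG, 964 to 1667 in PG, 560 to 1014 in VG, 741 to 1259 in Epi and 10.1 to 38.7 in Tes, and 5 of 5 were called higher in BG, 4 in PG, 2 in VG and 4 in Epi. The accessory glands thus had the same order of median for these markers as for AQP5, while Epi held the markers with AQP5 below 1 TPM. Basal cell markers (KRT5, KRT15 and TP63, with KRT14 at 0 or absent) summed to 33.3 to 224 TPM in BG, 25.4 to 69.1 in VG and 0.478 to 12.9 in PG, with 2 of 3 called higher in BG, 1 higher in VG and 3 lower in PG. The part of these markers in the values of AQP5, and of AQP3 below, was not tested.

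AQP3, an aquaglyceroporin of basolateral membranes, was highest in BG, as AQP5 was. In BG it was at 178, 321 and 294 TPM in BMI and at 182, 143 and 236 in DSE. PG held 169, 92.2 and 118 in BMI and 22.0, 7.58 and 45.3 in DSE. VG held 158, 46.3 and 41.7 in BMI and 37.7, 64.1 and 98.8 in DSE. BG was highest, and its libraries overlapped those of PG and VG at the lower edge. Tes ranged from 0.696 to 1.35 TPM and Epi from 0.316 to 8.14. BG exceeded PG by 2.10 (limma adjusted p = 0.000859) and VG by 1.73 (adjusted p = 0.0015) on the log2 scale. VG and PG were not separated, with a difference of 0.37 and a 95% interval of -0.51 to 1.25 (adjusted p = 0.592).

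AQP2, the vasopressin-regulated channel of the kidney collecting duct, had the largest median share of the members in VG. In VG it was at 1992, 649 and 413 TPM in BMI and at 183, 257 and 532 in DSE. AQP5 was above AQP2 in DSE VG 1, at 311 TPM against 183, and below it in the other VG libraries. In PG AQP2 was at 0.348, 252 and 0.694 in BMI and at 0.606, 0.540 and 0.952 in DSE. The value of 252 belonged to BMI PG 2, the library that resembled VG, and the other PG libraries were all below 1 TPM. BG ranged from 0.120 to 0.812 TPM, Tes reached 0.112 and Epi 0.0383. VG exceeded PG by 7.02 on the log2 scale (limma adjusted p = 1.66e-07) and by 8.26 without the 2 libraries that stood apart (adjusted p = 3.11e-15). Calls of PG over Tes by 1.87 (adjusted p = 0.0322) and over Epi by 1.89 (adjusted p = 0.046) rested on BMI PG 2, and became 0.63 (adjusted p = 0.0793) and 0.66 (adjusted p = 0.0726) without these libraries.

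In the gland contrasts VG had 3 of the 9 tested members higher, against 2.95% of all genes tested. These were AQP2 by 8.32 (SE 0.60, limma adjusted p = 8.33e-11), AQP5 by 3.06 (adjusted p = 4.95e-13) and AQP3 by 2.0 (adjusted p = 1.31e-05). In BG 3 were higher, against 8.45% of all genes, namely AQP5 by 5.43 (adjusted p = 7.97e-19), AQP3 by 4.16 (adjusted p = 4.15e-10) and AQP1 by 1.67 (SE 0.51, adjusted p = 0.00791). In PG 2 were higher, against 3.7% of all genes, namely AQP5 by 4.13 (adjusted p = 6.22e-16) and AQP3 by 1.53 (SE 0.34, adjusted p = 0.00055). The lower calls in these glands were AQP7, AQP8 and AQP11 in VG (30.1% of all genes lower), AQP7 and AQP11 in PG (12.8%) and AQP2, AQP7, AQP8 and AQP11 in BG (12%). A lower call does not by itself place a gland below each of the others. In the pairs of all libraries, AQP7 and AQP8 were called below Tes alone in these glands, and AQP2 in BG below VG alone. AQP11 in PG and BG was called below Tes and above VG. The higher and lower calls of AQP2, AQP7 and AQP8 were set by the filter and are descriptions. The AQP11 call in BG was lost with a pseudocount of 0.1, at -0.87 (limma adjusted p = 0.0226), under the minimum difference. AQP2 was at -0.46 in PG (adjusted p = 0.549) with all libraries and at -1.69 (adjusted p = 4.40e-06) without those that stood apart. The higher and lower shares of all genes depend on the scaling. After scaling by median-of-ratios size factors they were 7.40% and 12.2% in VG and 8.64% and 9.27% in Epi, and members called numbered 6 in VG and 7 in Epi, the counts also found on the TPM scale.

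Testis held the 3 members AQP11, AQP7 and AQP8. AQP11, an intracellular channel, was at 225, 243 and 221 TPM in BMI Tes and at 217, 70.7 and 204 in DSE Tes. AQP7, an aquaglyceroporin known from spermatids and fat cells, was at 107, 126 and 114 in BMI and at 98.9, 28.0 and 90.4 in DSE. AQP8, a channel for water and ammonia, was at 22.6, 28.1 and 31.5 in BMI and at 19.1, 53.5 and 27.3 in DSE. Every testis library was above every other library for all 3 genes. Outside testis AQP7 was at most 0.805 TPM, AQP8 at most 3.72 and AQP11 between 0.0732 and 3.64. Against the other glands the log2 difference was 6.37 for AQP11 (SE 0.21, limma adjusted p = 3.21e-19), 6.29 for AQP7 (SE 0.17, adjusted p = 4.02e-21) and 4.62 for AQP8 (SE 0.23, adjusted p = 1.44e-15). These 3 of 9 members stood beside 34.6% of all genes called higher in testis. With Ensembl transcripts alone AQP11 did not pass the filter, and its call was lost. AQP1, AQP2, AQP3 and AQP5 were called lower than the mean of the other glands, as 12.7% of all genes were. This does not place Tes below each of them.

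In DSE Tes 2 the testis members parted. AQP7 (28.0 TPM) and AQP11 (70.7) were at their lowest there, and AQP8 (53.5) at its highest. The same library had the lowest sum of spermatid markers and the highest sums of Leydig cell markers and of Sertoli cell markers (660 TPM against 223 to 395), and their part in these values was not tested. AQP8 then made up 32.3% of the summed aquaporin TPM, against a median of 7.60% in testis. Outside testis, AQP11 was lowest in VG, below Epi by 1.10 (limma adjusted p = 0.00112), below PG by 1.09 (adjusted p = 0.00299) and below BG by 1.20 (adjusted p = 0.000612) on the log2 scale.

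The epididymis was the gland of AQP9, an aquaglyceroporin of principal cells with a wide range of solutes, and it also held AQP1 at widely varying levels. AQP9 was at 8.28, 0.435 and 18.3 TPM in BMI Epi and at 5.15, 17.7 and 4.32 in DSE Epi. In VG it ranged from 0.126 to 2.10, and it reached at most 0.681 TPM in the other glands. All Epi libraries except BMI Epi 2 were above every library of the other glands. AQP9 was the 1 member of 9 called higher in Epi, beside 15.1% of all genes, with a log2 difference of 2.61 (SE 0.31, limma adjusted p = 1.77e-07). It exceeded VG by 2.28 (adjusted p = 2.80e-05) and BG by 2.78 (adjusted p = 3.39e-06). With Ensembl transcripts alone AQP9 did not pass the filter, and its call in Epi was lost. AQP2, AQP3, AQP5, AQP7, AQP8 and AQP11 were called lower than the mean of the other glands (6.56% of all genes), which does not place Epi below each of them. In the pairs Epi was called below VG, PG and BG for AQP3 and AQP5, but for AQP7, AQP8 and AQP11 it was called below Tes alone, and for AQP11 it was above VG.

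AQP1, the water channel of capillary endothelium, red blood cells and efferent ducts, was at 353, 8.89 and 6.28 TPM in BMI Epi and at 14.6, 140 and 87.8 in DSE Epi. In BG it was at 75.5, 94.9 and 101 in BMI and at 56.4, 37.4 and 158 in DSE. It ranged from 36.0 to 82.9 in PG, from 12.2 to 37.4 in VG and from 4.35 to 11.4 in Tes. The epididymis thus ran from testis levels to above every other library, and its own contrast was 0.48 on the log2 scale (limma adjusted p = 0.433). Tes was lowest, below Epi by 2.21 (adjusted p = 0.00377), below PG by 2.66 (adjusted p = 0.000787) and below BG by 3.16 (adjusted p = 0.000119), and not separated from VG (adjusted p = 0.133). VG was below BG by 2.06 (adjusted p = 0.00997), and Epi was separated neither from PG (adjusted p = 0.627) nor from BG (adjusted p = 0.275).

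AQP4, the channel of perivascular astrocyte feet and of fast skeletal muscle, was at 2.74, 0.0565 and 0 TPM in BMI Epi and at 0, 5.33 and 1.05 in DSE Epi. It was listed at 0 in all testis libraries and reached 1.04 in BG. Its difference in Epi was 0.81 (limma adjusted p = 0.00711), under the minimum difference.

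The epididymis libraries differed in their markers of region and of other cells. The summed TPM of 7 endothelial markers was 719, 72.1 and 59.4 in BMI and 97.0, 330 and 241 in DSE, the same order over the 6 libraries as AQP1. Erythroid markers summed to 70.9, 9.50 and 1.73 in BMI and to 2.62, 45.3 and 24.6 in DSE. Smooth muscle markers summed to 13994, 2318 and 5094 in BMI and to 3747, 21116 and 8091 in DSE. The library with the most AQP1 thus also had the most endothelial and erythroid marker RNA. Across glands the order was not shared. The median endothelial sum was 169 TPM in Epi, 163 in PG, 110 in BG, 67.4 in Tes and 59.4 in VG. Median AQP1 in these glands was 51.2, 55.4, 85.2, 9.07 and 15.4 TPM. No endothelial marker was called in BG, where AQP1 was called higher. BMI Epi 2 stood apart for epididymal secretory genes, with GPX5 at 8449 TPM against 4.42 to 928 in the others, RNASE10 at 10294 and LCN8 at 9677. Its UPK2, a urothelial plaque gene, was at 16.3 TPM against 40.5 to 1402 in the others, and its AQP9 was also the lowest. The part of these markers in the aquaporin values was not tested.

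**Figure D3:**
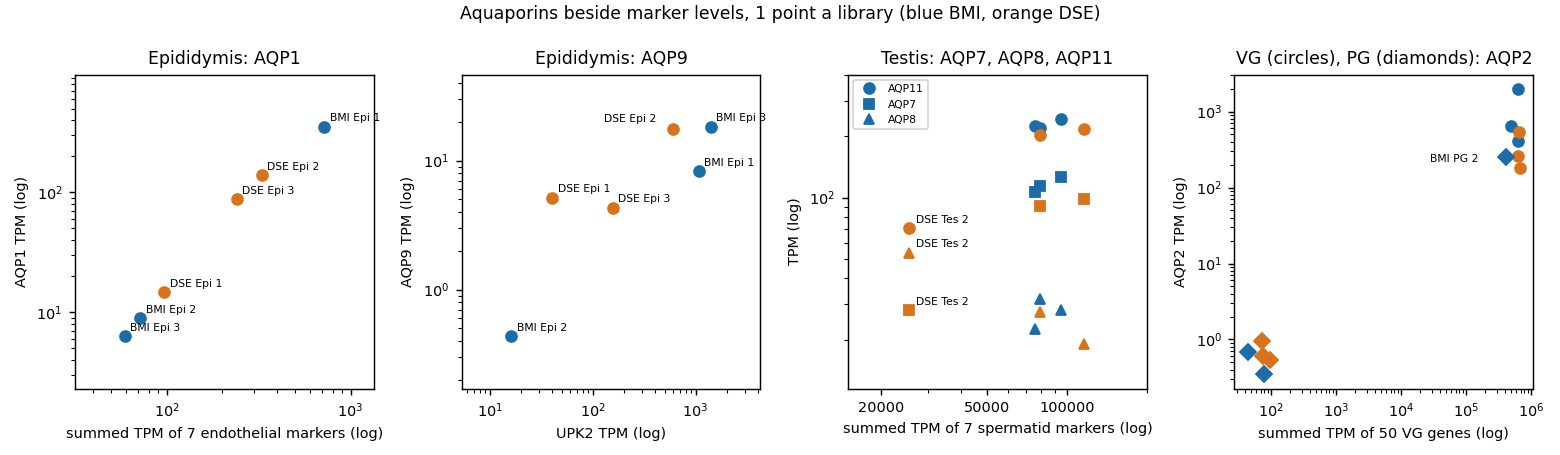
Aquaporin TPM against marker TPM on log axes, with 1 point for each library (blue BMI, orange DSE), for AQP1 and AQP9 in Epi, AQP7, AQP8 and AQP11 in Tes, and AQP2 in VG and PG. AQP1 runs from 6.28 to 353 TPM in the order of the endothelial sum, DSE Tes 2 lies at the low end of the spermatid sum, and BMI PG 2 lies with the VG libraries at 421175 TPM of the 50 VG genes.

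The comparison of the breeds set the inbred line beside the breed it came from. No member was called in any gland in fits of the 6 libraries of the gland with limma. Of all genes tested, 0.619% were called in Tes, 0 in Epi, 1.22% in VG, 0.343% in PG and 0.0219% in BG. At an unadjusted p below 0.05 there were 0 of 5 members in Tes, 0 of 5 in Epi, 2 of 4 in VG, 2 of 4 in PG and 0 of 4 in BG, beside 13.6%, 1.88%, 18.4%, 33.5% and 5.57% of all genes.

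The PG difference in AQP3 was the largest of these. Its DSE values of 22.0, 7.58 and 45.3 TPM were all below its BMI values of 169, 92.2 and 118, a separation in this direction that 1.81% of all genes showed. The log2 difference, DSE minus BMI, was -2.56 (SE 0.57, 95% interval -3.90 to -1.22, unadjusted p = 0.00251, limma adjusted p = 0.0801). Without BMI PG 2 it was -2.77, with an adjusted p of 0.0368, past the threshold, and 7.06% of all genes were called in that fit. AQP1 in PG went the other way, with every DSE library above every BMI library, as in 38% of all genes, and a difference of 0.62 (limma adjusted p = 0.111).

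In VG, AQP2 was lower in DSE by a log2 difference of -1.47 (SE 0.50, unadjusted p = 0.0122, limma adjusted p = 0.181), and its libraries overlapped between the breeds. Without DSE VG 3 the difference was -1.90 with an adjusted p of 0.0272, past the threshold, and 1.13% of all genes were called in that fit. AQP5 in VG had a difference of 0.79 (unadjusted p = 0.026, limma adjusted p = 0.231), also with overlap. In Tes every DSE library was below every BMI library for AQP7 and for AQP11, as for 17.1% of all genes, with limma adjusted p of 0.433 and 0.493. Whether breed differences varied between glands was tested as an interaction over all 30 libraries, in which limma called 0 of 9 members, beside 2.94% of all genes. With size factors 2 members were called (AQP3 and AQP5), beside 3.28% of all genes, and without DSE Epi 1 there was 1 (AQP3), beside 3.37%. AQP3 was the only member of the 9 tested with an unadjusted p below the threshold in that limma fit (unadjusted p = 0.0107, limma adjusted p = 0.179), as 14.2% of all genes were.

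Iso-seq gave a second view of the glands, with 1 library for each breed and gland. The breeds within a gland thus cannot be tested, and no test was run between the glands. In all 3111 full-length reads belonged to members, in 48 isoforms, and 2609 of the reads (83.9%) were full-splice matches, that is, they had all the junctions of an Ensembl model. AQP2 had 1802 reads, AQP1 390, AQP5 277, AQP11 256, AQP3 196, AQP7 85, AQP9 73, AQP8 30 and AQP4 2, and AQP6 and AQP10 had 0 of all reads. The intervals given are exact 95% Poisson intervals, which cover counting error alone.

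AQP2 reads were found in both VG libraries, with 472 reads in BMI (161 per 100000 reads, interval 146 to 176) and 698 in DSE (219 per 100000). The BMI PG library held 631 (240 per 100000, interval 221 to 259), and the DSE PG library held 0. This BMI PG library also had 11788 reads per 100000 from the 50 VG genes, against 11.9 in DSE PG, so that both BMI prostate samples with AQP2 carried the VG genes. AQP7, AQP8 and AQP11 had 39, 20 and 119 reads in BMI Tes and 46, 10 and 133 in DSE Tes. AQP9 had 65 reads in BMI Epi (14.2 per 100000) and 3 in DSE Epi (1.30). AQP1 had 4 in BMI Epi (0.872 per 100000) and 42 in DSE Epi (18.1), so the epididymis libraries differed for both genes in opposite directions. AQP5 and AQP3 had the most reads in BMI BG, with 145 (37.3 per 100000) and 122 (31.4), and DSE BG held 28 (10.5) and 33 (12.4). For AQP5 the order of the glands by TPM was not kept in DSE, where VG held 41 reads (12.9) and PG 9 (2.68). In BMI, VG held 22 AQP5 reads (7.49) and PG 32 (12.2), both below BG.

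**Figure D4:**
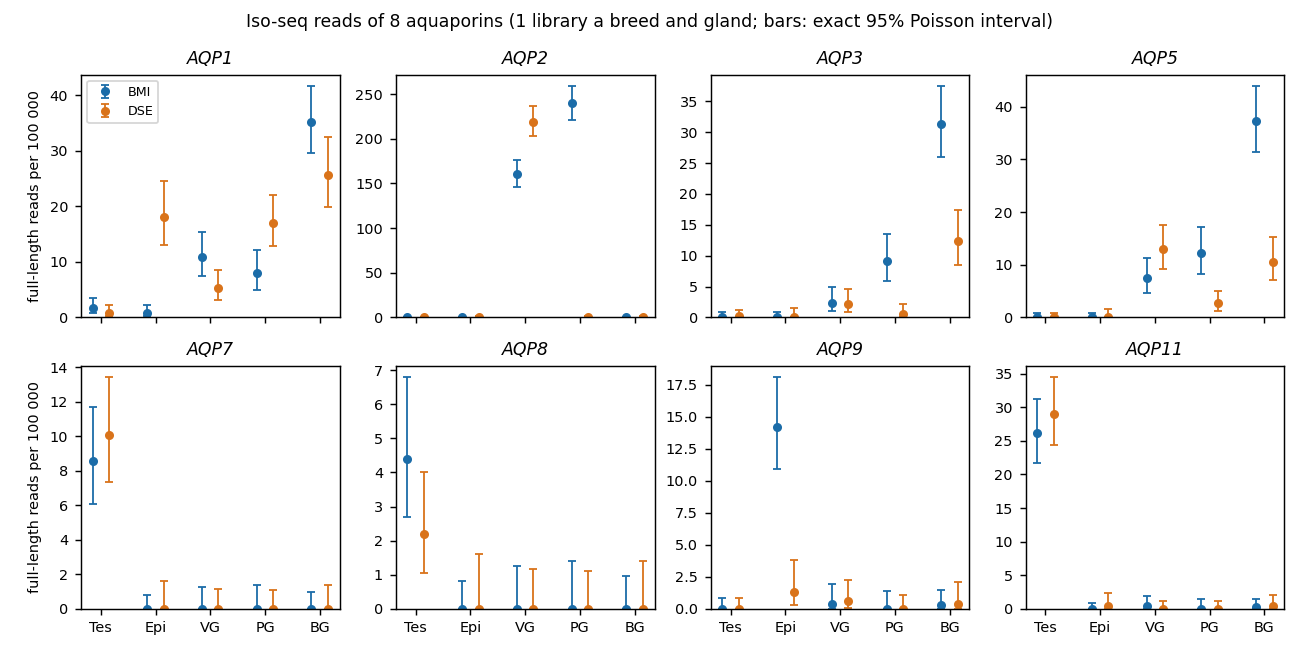
Full-length reads per 100000 for 8 aquaporins in the 10 Iso-seq libraries (blue BMI, orange DSE), with exact 95% Poisson intervals, each panel on its own linear axis from 0. AQP2 is at 161 and 219 in VG and at 240 in BMI PG, AQP7, AQP8 and AQP11 are in Tes, and AQP9 is at 14.2 in BMI Epi.

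The full-length reads extend the annotated AQP2 gene. Its main isoform, a full-splice match with 4 exons and 1454 reads, was 5300 bases long, began 197 bases upstream of the Ensembl model and ended 4282 bases past it. Isoforms ending more than 3700 bases past the model, 25 of 29, held 1790 of the 1802 reads (99.3%), and 0 isoforms ended within 100 bases of it. Isoforms merge reads, so the ends are those of isoforms and the ends of single reads were not measured. With these ends, and with the Iso-seq start of AQP5 upstream of its Ensembl start, the gap between the genes was 2948 bases. The model of the full-splice match in the expression table kept the shorter Ensembl ends.

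Of the AQP2 reads outside the full-splice match, 119 were incomplete splice matches, which lack junctions of the model, and 229 belonged to other isoforms. An isoform with 66 reads used a donor 20 bases upstream in exon 3, which removes the bases in capitals from the end of the exon, downstream of the second NPA box. The window shown is the exon with the flanking intron bases (chr5:15867603-15867713, plus strand). The open reading frame predicted in the deposited classification was 318 codons for it and 311 for the full-splice match. Neither is the 271 codons of the AQP2 coding sequence in RefSeq. The 20 bases are not a multiple of 3, so their removal shifts the AQP2 frame downstream of the second NPA box. Another isoform, with 53 reads, left out 936 bases, and the first 5 of these are repeated right after the gap. The bases in capitals in the 2 shorter sequences are the first pair left out (chr5:15868379-15868408) and the last pair left out (chr5:15869315-15869344), so that the gap begins with CC and ends with AG, where a usual intron begins with GT. Isoforms with such a junction held 61 of the AQP2 reads (3.39%).
AQP2 exon 3 and donor: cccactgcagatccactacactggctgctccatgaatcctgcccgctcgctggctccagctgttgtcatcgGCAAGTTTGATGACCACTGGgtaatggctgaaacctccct
AQP2 left side of the gap: cgccatcctggcctcCCtcctctacaacta
AQP2 right side of the gap: gctcccccaaagtAGcctccaggaaaaagg

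Short-read TPM and full-length reads divided AQP2 and AQP11 differently among isoforms. Of the AQP2 isoforms in the expression table, the Ensembl model had 86.6% of the full-length reads and 56.1% of the TPM, while PB.14326.5 had 4 reads and 14.7% of the TPM. For AQP11 the full-splice match had 218 of 256 reads (85.2%) but 0.595% of the TPM, and PB.19504.4, with 4 reads and a non-canonical junction, had 81.5%. PB.19504.4 made up 78.8 to 83.7% of the AQP11 TPM in every testis library. AQP9 was read from 1 isoform alone, PB.822.2, with all 73 reads and 97.8% of the TPM. The gene levels above sum over isoforms.

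**Figure D5:**
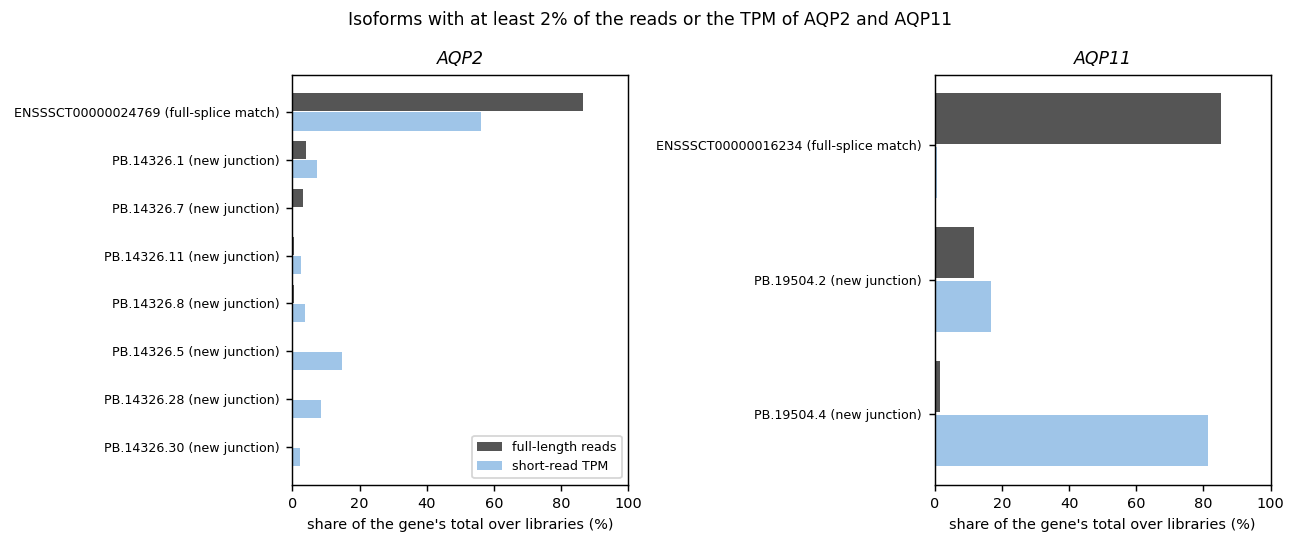
Share (%) of full-length reads (dark) and of short-read TPM (light) for each isoform with at least 2% of either, for AQP2 and AQP11. The full-splice match of AQP11 has 85.2% of the reads and 0.595% of the TPM, and that of AQP2 86.6% and 56.1%.

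The share of the leading isoform was compared between the 2 glands with the highest level of each gene, in 6 members with enough isoforms. For AQP2 no comparison of shares can be read, since the gene was below 1 TPM in 5 of the 6 PG libraries, where the share was 0, nor for AQP7, which was below 1 TPM in all Epi libraries. The AQP2 shares in the VG libraries were 65.3, 39.9 and 48.2% in BMI and 53.5, 56.6 and 53.5% in DSE, and the 45.8% of BMI PG 2 lay within that range. The other 4 did not pass a two-sided exact permutation test, with differences of 8.01 percentage points for AQP1, -0.62 for AQP3, -0.97 for AQP5 and 5.15 for AQP11 (adjusted exact p = 0.408 each). Among Iso-seq isoforms alone the AQP11 difference turned to -15.6 points, Tes below BG (adjusted exact p = 0.00433), but nothing is read from it, since AQP11 was at 1.39 to 2.47 TPM in BG, where PB.19504.2 was listed at 0 in all 6 libraries and PB.19504.3 in 5 of 6. The smallest p of this test is 0.00216.

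Genes that work with aquaporins were followed from lists typed from general knowledge, and every gene named here was called by limma in the contrast given. The shares of all genes that the counts stand beside are 2.95% higher and 30.1% lower in VG, 3.7% and 12.8% in PG, 8.45% and 12% in BG, 34.6% and 12.7% in Tes and 15.1% and 6.56% in Epi, and the medians of all genes are -0.69, -0.28, -0.05, 0.31 and 0.25. Of 13 tested genes of ion transport, 4 were higher and 4 lower in VG, 4 and 3 in PG, 3 and 2 in BG, 2 and 8 in Tes and 4 and 2 in Epi. VG had the Na/H exchanger SLC9A3 higher by 5.39 and the chloride-bicarbonate exchanger SLC26A3 by 5.18 on the log2 scale, and the Na-K-Cl cotransporter SLC12A2 lower (-3.08). In PG ATP1B1, a subunit of the sodium pump, was higher by 4.43 and SLC12A2 by 3.92. In BG the sodium channel subunit SCNN1A was higher by 5.10 and SLC12A2 by 5.09. The accessory glands that shared AQP5 thus had these transporters in different combinations, and SLC26A3 was lower in PG (-2.19) and in BG (-3.38). The medians of the list were -0.32 in VG, -0.50 in PG, 0.25 in BG, -1.80 in Tes and 0.09 in Epi. The lower calls in VG were near the share of all genes, and 8 of 13 lower in Tes stood beside 12.7%.

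Of 11 genes of vasopressin and cAMP control, 1 was higher and 2 were lower in VG, none and 1 in BG, 3 and 3 in Tes, and 3 were higher and none lower in Epi. In PG none was called. The higher calls in Tes, 3 of 11, were near the share of all genes, 34.6%, and in VG 1 of 11 stood beside 2.95%. The gene higher in VG was AVPR2, the vasopressin receptor that acts on AQP2 in the kidney, at 95.1 to 157 TPM with a median of 126, a difference of 4.25 (limma adjusted p = 1.39e-08). AVPR2 was also higher in Epi by 1.5, where it ranged from 1.49 to 65.6 TPM, and lower in BG (-1.93). The VG libraries all lay above the other libraries for AVPR2, of which BMI PG 2 came nearest at 87.1 TPM. Tes had AVPR2 lower (-3.07). The list's medians were -0.44 in VG, -0.01 in PG, 0.003 in BG, -0.33 in Tes and 0.34 in Epi.

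Of 9 genes of glycerol use, 3 were higher and 3 lower in Tes, 2 and 1 in Epi, 2 and 2 in PG, 0 and 4 in VG and 0 and 3 in BG, with medians of 0.26, -0.16, -0.13, -0.55 and -0.15. The higher calls in Tes were near the share of all genes, 34.6%, and the median there was close to the 0.31 of all genes. Testis, which held the aquaglyceroporin AQP7, had the glycerol kinase GK2 higher by 8.38, the lipase LIPE by 5.69 and the acyltransferase GPAM lower (-1.69). GK2 was lowest in the library with the lowest AQP7, DSE Tes 2, at 118 TPM against 373 to 526 in the other testes. Of 6 anchors of AQP4, 3 were higher in Epi, among them DTNA by 3.73 and DMD by 2.10, beside 15.1% of all genes, with a list median of 1.09 against 0.25. All 6 smooth muscle markers were higher in Epi too, with a median of 3.71, and their part in the anchors was not tested. Elsewhere 1 anchor was lower in Tes and 2 in BG, and none was called in VG or PG. Of 8 genes of osmotic response, 2 were higher and 3 lower in VG, 2 and 3 in Tes, 1 and 3 in PG, 1 and 2 in BG and 1 and 1 in Epi. The VG counts stand beside 2.95% higher and 30.1% lower of all genes. In VG the inositol transporter SLC5A3 was higher by 3.16 and the aldose reductase AKR1B1 by 2.50, and the list median was -0.13 against -0.69.

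Over the 30 libraries, members fell into the groups that the glands set. Pearson correlations of log2(TPM + 1) were 0.982 between AQP7 and AQP11, 0.940 between AQP8 and AQP11, 0.936 between AQP7 and AQP8 and 0.931 between AQP3 and AQP5, and 0.653 between AQP1 and AQP4. The named gene most like AQP5 was BHLHA15 (0.977), a transcription factor of secretory cells, followed by the potassium channel gene KCNN4 (0.976). KCNN4 was also among the 3 most like AQP3 (0.925). AQP2 was most like SPMI (0.965), DCLK3 (0.964) and CEACAM20 (0.959), and AQP1 most like ADCY4 (0.927), MGP (0.925) and ICAM1 (0.924). AQP7 was nearest to RBM44, FSIP2 and KCTD19 (0.998 each), AQP11 to ABCF2 (0.992), AQP8 to SSTR1 (0.971) and AQP9 to CLDN9 (0.920). These correlations describe libraries that share glands and 5 levels of tissue, and they carry no test.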

How the data were processed

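The members and lists were chosen with earlier results of these data known. Expression was deposited as TPM. The authors ran Salmon 1.9.0 on trimmed short reads against Ensembl transcripts merged with Iso-seq isoforms that were neither full nor incomplete splice matches. Iso-seq was deposited as raw counts of full-length reads, after clustering, alignment to Sscrofa11.1 and classification with SQANTI3 by the authors. The small RNA table was not used here, and 0 per-sample columns were left unmapped.

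Libraries were grouped by the labels, and transcript TPM were summed by gene. Genes that reached 1 TPM in 3 or more libraries of a fit entered limma 3.58.1 (R 4.3.3, with a trend) as log2(TPM + 1), which understates the differences of low genes. Gland contrasts, pairs and the interaction used 10 breed and gland groups, and breed contrasts the 6 libraries of a gland. All p-values were adjusted over all genes. Isoform shares were compared by exact permutation in Python 3.11.15, adjusted over the 6 members. All members are named, with up to 3 called genes of each list by size and the 3 nearest genes for members reaching a mean of 5 TPM in some gland. On simulated data, 97.0% of 200 genes planted at a log2 difference of 2 were recovered for testis, with 1 false call. For the breeds in PG 66.0% (132 genes) were recovered, with 10 false calls. At a planted difference of 4 there, 194 were recovered with 21 false calls. Alternatives are given in the closing section, and that without the 2 libraries that stood apart was chosen after seeing the data. The labels give rRNA depletion and the methods poly-T selection. No strand-marking kit is named, so reads of genes on opposite strands cannot be told apart.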

Additional observations from a re-analysis of the deposited data

Results flagged for a closer look

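In 6 of 24 groups of 6 libraries of a gland, 1 library lay far from the others by Dixon's criterion. Its rate of about 1 in 20 holds for normal values of a single population. These values were raw TPM over both breeds, in groups that share libraries, so the count is not set against that rate. Of these, 3 belonged to DSE Tes 2, with AQP7 at 28.0 TPM against 90.4 to 126 in the other testes, AQP11 at 70.7 against 204 to 243 and AQP8 at 53.5 against 19.1 to 31.5. AQP2 was at 252 TPM in BMI PG 2 against 0.348 to 0.952 in the other PG libraries. AQP2 was also at 1992 TPM in BMI VG 1 against 183 to 649 in the other VG libraries. AQP5 was at 1122 TPM in BMI BG 3 against 673 to 835 in the other BG libraries.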

How the results depend on the processing

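Of 299 alternative counts of members called, over 11 comparisons, 292 stayed within 1.5 times the reported count and 7 did not. The PG breed count rose from 0 to 1 (AQP3) in one fit of all 30 libraries (0.596% of all genes called) and to 1 without the 2 libraries that stood apart (7.06%, against 0.343% with them), and ranged from 0 to 1 when each library was left out, with 1 without BMI PG 2. The VG breed count ranged from 0 to 1, with 1 (AQP2) without DSE VG 3. The interaction count was 1 with no filter (AQP10), 2 with size factors (AQP3 and AQP5) and ranged from 0 to 1 over libraries left out, with 1 (AQP3) without DSE Epi 1. The cause was not tested. Leaving out a library gave 7 to 7 for Tes, 7 to 8 for Epi, 6 to 7 for VG, 4 to 5 for PG and 7 to 7 for BG. Of 1239 values of single genes, taken for members with a reported difference of at least 1 that could be tested under the alternative, 1232 kept their side of the threshold and 0 changed sign, 1 fell short (AQP11 in BG, -0.87 with a pseudocount of 0.1) and 6 newly passed, among them AQP1 in PG with size factors (1.16, limma adjusted p = 0.0314) and without BMI Epi 1 (1.26, adjusted p = 0.00187). AQP9 and AQP11 did not pass the filter with Ensembl transcripts alone. The AQP9 call in Epi and the AQP11 calls in all glands were lost there, outside that tally. Members with a smaller reported difference are not in that tally, and of these AQP2 was newly called in PG without BMI PG 2, AQP1 in VG without BMI Epi 3 and AQP4 in Epi without DSE Epi 1. AQP4 in Epi and AQP9 in Tes, PG and BG were also newly called with a pseudocount of 0.1 or with no minimum difference. Size factors moved the median of all genes by -0.18 in Tes, -0.39 in Epi, 0.50 in VG, 0.085 in PG and -0.15 in BG.

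Of 80 alternative isoform shares, 67 kept their call. The AQP2 difference, in which 5 of 6 PG libraries had hardly any AQP2, was 45.2 percentage points (adjusted exact p = 0.026), but nothing is read from it. It was 11.6 percentage points from summed TPM and ranged from 42.7 to 52.8 without single libraries, where the adjusted exact p rose to 0.0519 in 10 cases. The AQP11 difference became -15.6 among Iso-seq isoforms alone, with an adjusted exact p of 0.00433, and is not read either. The AQP7 difference, 11.4 with Epi below 1 TPM throughout and likewise not read, ranged from -1.71, without DSE Epi 2, to 14.6. The other ranges were 3.05 to 10.8 for AQP1, 2.58 to 6.93 for AQP11, -0.85 to -0.16 for AQP3 and -1.35 to -0.42 for AQP5.

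With the replicate number as a block, the counts were 7 in Tes, 7 in Epi, 6 in VG, 4 in PG and 7 in BG and 0 for the breeds and the interaction. The labels do not say that numbers pair samples, and not every pair was correlated. Deviations of libraries with the same number and breed had a median correlation of 0.041, with 21 of 60 pairs over 0.1, against -0.026 and 18 of 120 pairs for different numbers. The TPM table keeps no depth, and no counting limit is given here for low values. Iso-seq has 1 library a group.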

Other observations

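Transcripts on the opposite strand overlap several members. An Iso-seq isoform over AQP2, PB.14327.1, had a mean of 47.7 TPM in VG and 1.68 in PG. The gene ENSSSCG00000062534 over AQP5 had a mean of 17.4 TPM in BG, and ALDH1A2 isoforms over AQP9 reached a mean of 16.9 TPM in Tes, where AQP9 was at most 0.263 TPM. Since strand is not marked, how reads were divided between these pairs was not tested.

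The locus ENSSSCG00000035083, which RefSeq places with an AQP12-like gene, carries no symbol in the deposited annotation and was not a member. Its mean was 4.84 TPM in PG (0.885 to 10.2) and 3.02 in Tes. MIP, the lens member of the wider family, reached 0.437 TPM.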
